A study of Rattus norvegicus with 6 samples.

Results

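The genes described here are the hnRNP proteins outside the A/B/D group together with the PTB and PCBP proteins, the SR proteins and their CLK kinases, and the RBFOX, MBNL and CELF regulators of splicing, in cultured rat liver cells after an siRNA against Hnrnpa2b1. They were chosen by symbol from a list of 45 genes. Of the 45, 44 had a row, each of them a single row, in a table of 30957 genes, and Hnrnpk was not analysed here. The 6 RNA-seq libraries were made from BRL-3A, an established cell line that the labels describe as rat liver of the Sprague-Dawley strain. The libraries labelled si-hnrnpa2b1 number 3 and those labelled NC number 3. NC is not spelled out in the labels. Per the labels' protocol, transfection with a lipid reagent lasted 48 h; what NC cells received is not stated. All 6 libraries carry the same disease label, of raised blood triglycerides, and come from 1 cell line. Separate cultures behind the replicates are not named, so the p-values reflect the spread among these 6 libraries alone, and that spread may be technical.

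Pre-mRNA splicing is steered by proteins that bind the nascent transcript. Many hnRNP and PTB proteins keep the spliceosome away from exons they bind nearby, while SR proteins bind exons and recruit it, through arginine-serine tails that CLK kinases phosphorylate. MBNL, CELF and RBFOX proteins set splicing patterns that differ between tissues and stages of development. Many of these genes control their own output by splicing: including or skipping an exon gives a transcript that is destroyed by nonsense-mediated decay, and related proteins do the same to one another. The values below are per gene, so a shift between transcripts of 1 gene that left its total count in place would not appear in them.

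The 6 libraries held between 13374412 and 15224108 counts each. Levels within a gene are given as CPM, the count as a rate per library total after TMM scaling (trimmed mean of M-values), and levels are compared between genes as the authors' FPKM, which divides by gene length. Means are ± SD over n = 3 libraries per group. Fold changes are log2 of si-hnrnpa2b1 over NC with their SE, from edgeR's quasi-likelihood fit of 12261 genes. "edgeR adjusted p" is the p of that test with Benjamini-Hochberg adjustment over those genes, and a gene is said to have risen or fallen where it was below 0.05. Hnrnpa2b1 itself had 607 ± 48.2 CPM in si-hnrnpa2b1 and 1014 ± 56.0 CPM in NC libraries, or -0.74 ± 0.06 on the log2 scale (edgeR adjusted p = 2.3e-06). The hepatocyte genes Alb, Apob, Ttr and Hnf4a had 0 counts in all 6 libraries, as had 6 of the 12 hepatocyte markers examined, and the highest of the 12, Tf, had 8.71 FPKM. The mesenchymal genes Fn1 and Col1a1, the highest of the 10 examined, had 2102 and 2017 FPKM. At the low end of these 10, Pdgfrb had 3.55 FPKM, Thy1 had 1 count over all libraries and Col1a2 had 0 counts. The label of liver was thus not matched by hepatocyte markers. Of 8 tested mesenchymal markers, Tagln, Acta2 and Des rose, against 2.36% of all genes tested that rose, and 5 did not pass. The 10 mesenchymal genes summed to 36814 to 37583 CPM in si-hnrnpa2b1 and 32540 to 35872 CPM in NC libraries. Most of that gap was Fn1, which was not called, with 21556 ± 868 and 18499 ± 1696 CPM, while Col1a1, Col3a1 and Pdgfrb had log2 fold changes of -0.01, -0.03 and 0.01. The part of this difference in the results below was not tested.

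Most of these splicing genes did not pass the test for a difference in mRNA level between si-hnrnpa2b1 and NC libraries. Of the 43 tested, 1 fell, 0 rose and 42 did not pass the test. The single change was the fall of Ptbp3. That is 2.33% of the genes tested here, against 5.30% of all 12261 genes, of which 2.94% fell. An unadjusted p below 0.05 was found for 8 of the 43 (18.6%), a share close to that among all genes tested (18.3%). Of these 8, 7 were lower and 1 was higher in si-hnrnpa2b1 libraries. Of the 2249 genes with such a p among all tested, 1172 were lower and 1077 were higher, or 9.56% and 8.78% of all 12261 genes. A lean in direction of the set was not tested. The count of 8 rests on single libraries: it was 3 without si-hnrnpa2b1 replicate 1, 4 without si-hnrnpa2b1 replicate 3 and 5 without NC replicate 2. DESeq2 likewise called 1 gene and gave 7 with an unadjusted p below 0.05, while limma on the FPKM values called 0 and gave 8 to 12.

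The intervals of the fit show how closely each fold change was estimated. Like the p-values, they rest on the spread among these 6 libraries alone, which may be technical. They hold per gene, without adjustment over the 43. For 34 of the 43 genes (79.1%) the whole 95% interval of the fold change lay within 1.2-fold in either direction, against 37.8% of all genes tested. For all 43 tested genes it lay within 1.5-fold, against 78.7% of all genes tested. Such narrow intervals were not particular to this set. The share within 1.2-fold was 74.6% in core spliceosome genes, 67.9% in other splicing regulators and 83.3% in exon junction and decay genes. The 43 genes had a median of 72.95 FPKM, against 10.7 FPKM over all genes tested, and the part of level in interval width was not tested. The median fold change of the 43 genes was -0.04 on the log2 scale, against a median of 0.00 over all genes. Of the 43, 31 (72.1%) had a negative sign, against 50.4%. The sign turned in at least 1 alternative for 14 of the 43, of which 12 are among those 31. The 3 si-hnrnpa2b1 values lay wholly above or wholly below the 3 NC values in 14 of the 43 genes (32.6%), against 23.4% of all genes tested.

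**Figure D1:**
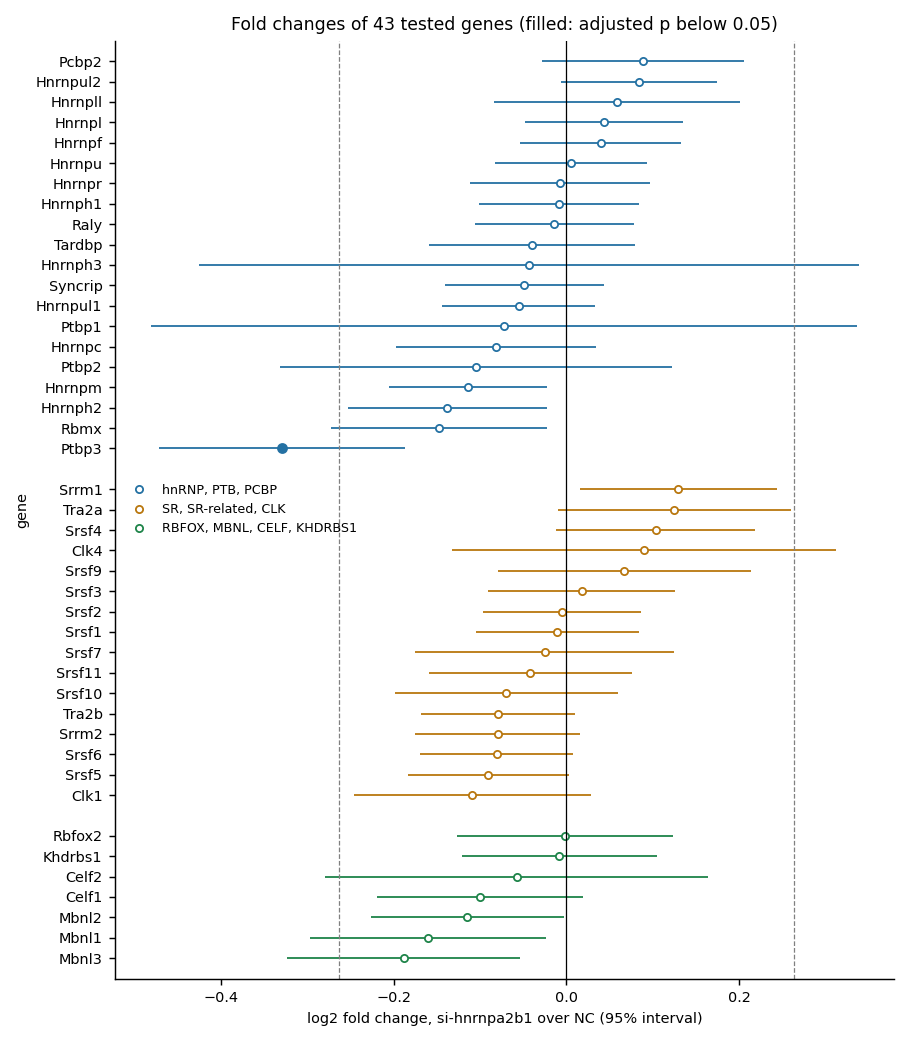
Log2 fold change of si-hnrnpa2b1 over NC for the 43 tested genes, with 95% intervals from edgeR's fit on 3 libraries per group, in 3 blocks of related genes. The dashed lines mark 1.2-fold in either direction, the filled point marks an adjusted p below 0.05, and Ptbp3 is the only filled point; Ptbp1 and Hnrnph3 have the widest intervals.

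As a group these genes were strongly expressed. Of the 43, 40 lay above the median FPKM of the tested genes (10.7 FPKM) and 23 in their top 10%, and the median over the 43 genes was 72.95 FPKM. Levels ran from 2.43 FPKM for Hnrnph3 to 237 FPKM for Hnrnpu, which binds RNA and chromatin as a nuclear scaffold. Hnrnpu had 238 ± 5.11 FPKM in si-hnrnpa2b1 and 237 ± 4.29 FPKM in NC libraries. It was followed by the G-tract binding protein Hnrnpf with 215 ± 3.39 and 209 ± 10.3 FPKM, the SR protein Srsf5 with 185 ± 6.21 and 197 ± 3.21 FPKM, and the nuclear speckle scaffold Srrm2 with 170 ± 8.14 and 180 ± 3.25 FPKM. The 44 genes together took 1.03% to 1.10% of the counts of each library. Summed, they had 10397, 10402 and 10614 CPM in si-hnrnpa2b1 and 10492, 10697 and 10885 CPM in NC libraries, and the groups overlapped. Ptbp1 was then left out after its values were seen, because its level was split between libraries as described below. Without it they summed to 9952, 9961 and 9859 CPM in si-hnrnpa2b1 and to 10023, 10234 and 10093 CPM in NC libraries. The groups then did not overlap, with means of 9924 ± 56.4 and 10117 ± 107 CPM. That separation appeared only after this choice, so it adds no support for a shift of the set.

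**Figure D2:**
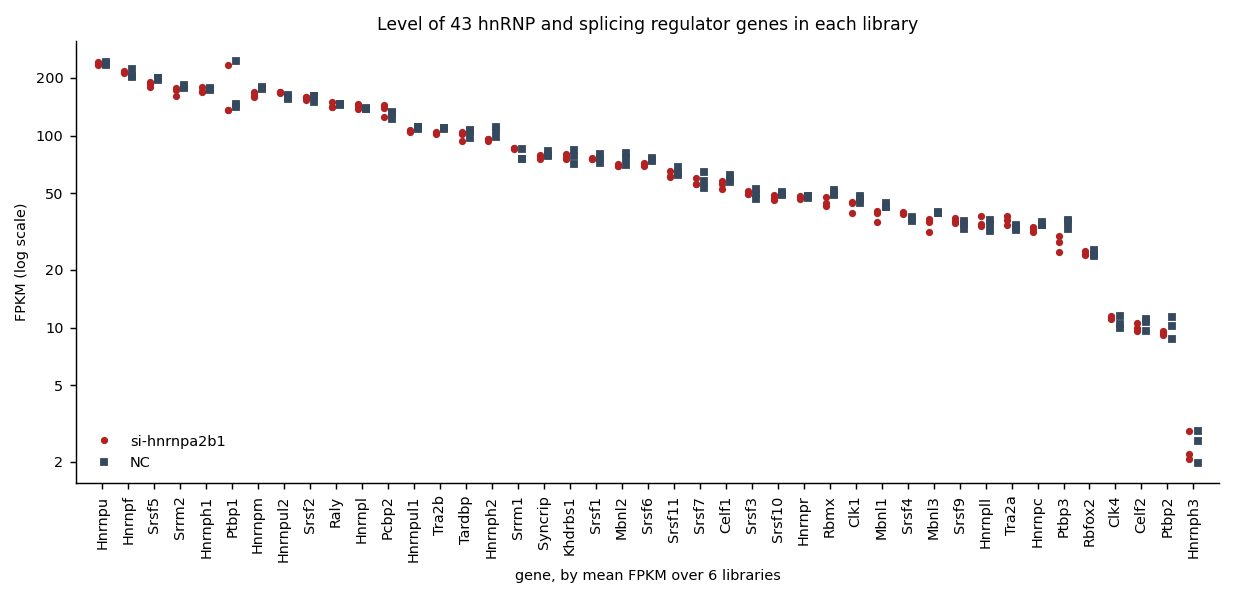
FPKM (log scale) of the 43 genes with counts in each library, ordered by their mean over all 6, with si-hnrnpa2b1 as circles and NC as squares. The groups lie close together at every level from 2.43 to 237 FPKM, Ptbp3 lies lower in all 3 si-hnrnpa2b1 libraries, and Ptbp1 shows 1 high library in each group.

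The PTB proteins bind pyrimidine-rich tracts and mostly repress exons beside them. Ptbp1 is the widely expressed form, Ptbp2 is known from neurons, and Ptbp3, also called Rod1, was first described in blood cells. In each group the order of their levels was Ptbp1, Ptbp3, Ptbp2. Ptbp1 had 168 ± 56.1 and 177 ± 59.0 FPKM in si-hnrnpa2b1 and NC libraries, Ptbp3 had 27.6 ± 2.67 and 34.8 ± 1.81 FPKM, and Ptbp2 had 9.37 ± 0.252 and 10.1 ± 1.34 FPKM.

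Ptbp3 (ENSRNOG00000016334, chromosome 5, positions 76673990 to 76756147 of Rnor_6.0) had 84.2, 101 and 94.0 CPM in si-hnrnpa2b1 libraries, against 121, 121 and 109 CPM in NC libraries. All 3 si-hnrnpa2b1 values lay below all 3 NC values. The level fell by 20.4%, or -0.33 ± 0.07 on the log2 scale, with a 95% interval from -0.47 to -0.19 (edgeR adjusted p = 0.0081). DESeq2 also called it (adjusted p = 6.7e-04), while limma on the FPKM values did not, with adjusted p from 0.061 to 0.13 over 3 settings, and every edgeR setting that left out a library kept the call. Its largest deviation was in si-hnrnpa2b1 replicate 1, without which the log2 fold change was -0.26 (edgeR adjusted p = 0.045). In these bulk libraries, less Ptbp3 mRNA per cell and fewer cells that express it cannot be told apart. The sources used here do not say how reads shared between PTB paralogs were assigned.

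Ptbp1 (chromosome 7, positions 12663966 to 12673723) stood at a pair of separate levels that cut across the groups. It had 445, 441 and 755 CPM in si-hnrnpa2b1 replicates 1, 2 and 3, against 469, 464 and 792 CPM in NC replicates 1, 2 and 3. Replicate 3 of either group was thus higher than the other libraries, by up to 1.71-fold within a group. Among the 42 genes of this set with at least 10 CPM, Ptbp1 was the only one with a ratio above 1.5 between libraries of 1 group, the next widest being 1.28, and 154 of 8670 tested genes at that level (1.78%) had such a ratio. Its fold change was therefore poorly bounded in the fit of all libraries, at -0.07 ± 0.19 with a 95% interval from -0.48 to 0.34 (edgeR adjusted p = 0.90). Within each replicate number the ratio of si-hnrnpa2b1 to NC was nearly constant, at -0.08, -0.07 and -0.07 on the log2 scale. Without replicate 3 of both groups, an alternative chosen after the values were seen, the fold change was -0.07 with an interval from -0.21 to 0.06 (edgeR adjusted p = 0.70), and with the replicate number as a block it was -0.07 with an interval from -0.17 to 0.02 (edgeR adjusted p = 0.42). Leaving out single libraries moved it between -0.38 and 0.23, so a direction of Ptbp1 cannot be given.

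Ptbp2 had 17.5, 17.8 and 18.2 CPM in si-hnrnpa2b1 and 19.2, 16.8 and 21.5 CPM in NC libraries, and the groups overlapped. Its exon skipping under PTBP1 is a textbook case of cross-control between paralogs. The fold change was -0.10 ± 0.11 (edgeR adjusted p = 0.67), and it was -0.01 without NC replicate 3 and -0.19 without NC replicate 2.

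**Figure D3:**
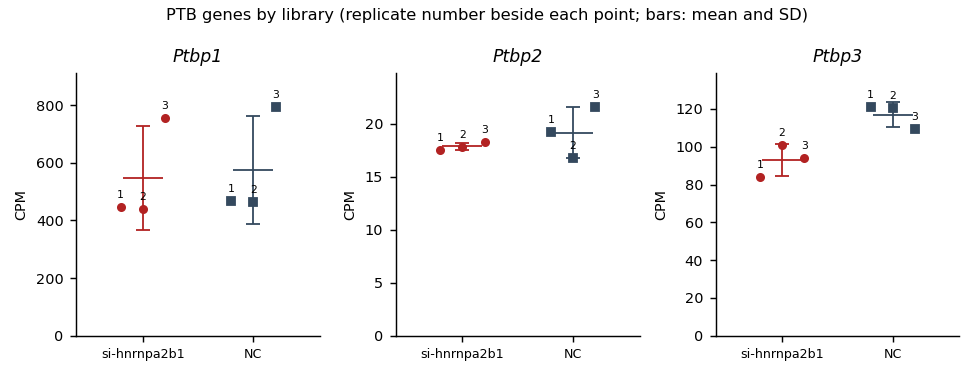
CPM of the PTB genes in each library, with the replicate number beside each point and the mean and SD of 3 libraries as bars; each axis starts at 0 and has its own scale. Ptbp3 is below NC in all 3 si-hnrnpa2b1 libraries, while Ptbp1 is high in replicate 3 of both groups (755 and 792 CPM).

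Among the remaining hnRNP and PCBP genes none passed the test, and 3 had an unadjusted p below 0.05, each of them lower in si-hnrnpa2b1 libraries. With Ptbp3, 4 of the 20 tested hnRNP, PTB and PCBP genes had such a p, a share close to the 18.3% of all genes tested. Among all genes tested, 9.56% had such a p and were lower, and 8.78% were higher. A lean in direction of these hnRNP genes was not tested. Hnrnpm, which binds GU-rich sequence, had 384, 368 and 359 CPM in si-hnrnpa2b1 and 393, 407 and 402 CPM in NC libraries, without overlap (log2 fold change -0.11 ± 0.04, edgeR adjusted p = 0.16). Hnrnph2, an X-linked binder of G tracts, had 153, 151 and 148 CPM against 154, 177 and 166 CPM, with NC replicate 1 next to the si-hnrnpa2b1 values (-0.14 ± 0.05, edgeR adjusted p = 0.18). Rbmx, the X-linked hnRNP G, had 85.7, 94.7 and 88.4 CPM against 96.4, 104 and 97.1 CPM (-0.15 ± 0.06, edgeR adjusted p = 0.18). The groups did not overlap in any of the 3 genes, and the mean differences ran from -9.71% to -7.59%. These 3 were picked by their p on the same libraries, so the lack of overlap adds no support. It was found in 23.4% of all genes tested.

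Within the F/H family the order of levels was Hnrnpf, Hnrnph1, Hnrnph2 and Hnrnph3 in either group. Hnrnph1 had 173 ± 5.58 FPKM in si-hnrnpa2b1 and 175 ± 2.84 FPKM in NC libraries, and Hnrnph2 had 95.5 ± 1.26 and 105 ± 6.45 FPKM. Hnrnph3 was far below its relatives, with 8.23, 5.76 and 6.17 CPM in si-hnrnpa2b1 and 5.50, 7.26 and 8.01 CPM in NC libraries, which is 593 counts in all. The groups overlapped fully, and the interval of its fold change, from -0.43 to 0.34, is among the widest of the set.

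The hnRNP U family also kept its order. Hnrnpu led with a fold change of 0.01 ± 0.04, an interval from -0.08 to 0.09 (edgeR adjusted p = 0.97). Hnrnpul2 had 436, 429 and 424 CPM in si-hnrnpa2b1 and 392, 419 and 405 CPM in NC libraries, without overlap but short of the threshold (0.08 ± 0.04, edgeR adjusted p = 0.31). Hnrnpul1, described in DNA damage repair, had 105 ± 1.34 and 110 ± 1.95 FPKM. Hnrnpul2 was thus the higher of these 2 paralogs in both groups.

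Elsewhere in the hnRNP set, Hnrnpl, a binder of CA repeats, had 142 ± 4.07 and 138 ± 1.41 FPKM in si-hnrnpa2b1 and NC libraries, above its paralog Hnrnpll, known from splicing of CD45 in T cells, with 35.6 ± 2.36 and 34.3 ± 2.12 FPKM. Raly, a relative of hnRNP C, had 144 ± 5.14 and 146 ± 1.12 FPKM, and Hnrnpc, which coats nascent RNA at uridine tracts, had 32.6 ± 1.02 and 34.6 ± 0.653 FPKM. Syncrip (hnRNP Q) had 77.4 ± 2.01 and 80.3 ± 2.83 FPKM, its paralog Hnrnpr 47.6 ± 0.977 and 48.0 ± 0.477 FPKM. Tardbp encodes TDP-43, which limits its own mRNA by binding its 3' end, and had 100 ± 5.65 and 103 ± 5.32 FPKM.

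Pcbp1, which binds poly(C) tracts, is an intronless gene. Its model (chromosome 8, positions 20132900 to 20134007) had 0 counts in all 6 libraries and was not tested. A count of 0 allows up to 3 counts, or 0.197 to 0.224 CPM depending on the library, for counting error only; whether reads of its mRNA could be assigned to this model was not tested, so no expression state is drawn from the 0. Pcbp2, its paralog with introns, had 249, 214 and 238 CPM in si-hnrnpa2b1 and 222, 211 and 226 CPM in NC libraries, which overlapped. Its model overlaps that of Prr13, which held 18822 counts against 19732 for Pcbp2, and the sources used here do not give the strand setting of the counting, so its level is uncertain.

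None of the SR proteins, their TRA2 and SRRM relatives or the CLK kinases passed the test. Of these 16 genes, 0 passed by edgeR or by DESeq2, and 1 had an unadjusted p below 0.05 by edgeR. The 95% interval lay within 1.2-fold for 15 of the 16, including all 10 SRSF genes, the exception being the low-abundance kinase Clk4. Their fold changes ran from -0.11 to 0.13 with a median of -0.02. Summed over the 16 genes they had 3747, 3876 and 3824 CPM in si-hnrnpa2b1 and 3864, 3967 and 3884 CPM in NC libraries, with overlap between the groups.

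Srsf5, an SR protein gene described as induced in regenerating rat liver, was the most abundant of them by FPKM. It had 213, 224 and 219 CPM in si-hnrnpa2b1 and 227, 237 and 234 CPM in NC libraries, without overlap, a difference of -0.09 ± 0.04 on the log2 scale (edgeR adjusted p = 0.29). Srsf6, a longer SR protein with a pair of RNA-binding domains, had 247, 253 and 247 CPM against 260, 263 and 268 CPM, again without overlap (-0.08 ± 0.04, edgeR adjusted p = 0.33). The differences were -6.07% for Srsf5 and -5.45% for Srsf6. Srsf4 did not overlap either but was higher, by 7.42%, with 89.1, 85.8 and 86.6 CPM against 82.3, 80.5 and 80.6 CPM (edgeR adjusted p = 0.33). A lack of overlap was thus found in 3 of the 10 SRSF genes (30.0%), against 23.4% of all genes tested. The order of the SRSF genes by mean FPKM was Srsf5, Srsf2, Srsf1, Srsf6, Srsf11, Srsf7, Srsf3, Srsf10, Srsf4 and Srsf9. At the low end of that order, Srsf4 had 39.5 ± 0.495 FPKM in si-hnrnpa2b1 and 36.9 ± 0.784 FPKM in NC libraries and Srsf9 had 36.0 ± 1.06 and 34.4 ± 1.71 FPKM. Srsf1, the founding SR protein, had 75.6 ± 0.786 and 76.4 ± 4.31 FPKM, which differed by less than the spread of the NC libraries, and Srsf2 had 156 ± 3.36 and 157 ± 6.84 FPKM.

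The TRA2 paralogs, which activate exons through GAA-rich elements and control each other's transcripts, had fold changes of opposite sign, and neither passed the test. Tra2a had 71.4, 63.8 and 67.4 CPM in si-hnrnpa2b1 and 63.4, 63.1 and 59.4 CPM in NC libraries (0.13 ± 0.06, edgeR adjusted p = 0.31). Tra2b had 103 ± 1.18 and 109 ± 0.561 FPKM, with a negative fold change. In both genes the groups did not overlap, and the difference between the paralogs was not tested.

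Srrm1, a coactivator that joins SR proteins to the exon junction, was the 1 gene of this class with an unadjusted p below 0.05. It had 366, 367 and 364 CPM in si-hnrnpa2b1 and 317, 368 and 319 CPM in NC libraries. NC replicate 2 lay at the level of the si-hnrnpa2b1 libraries and the other NC libraries lay below. The fold change was 0.13 ± 0.05 (edgeR adjusted p = 0.20), and without NC replicate 2 it was 0.20 and passed (edgeR adjusted p = 0.0069). Over all alternatives its adjusted p ran from 0.0069 to 0.64. The partner scaffold Srrm2 had 1319, 1431 and 1392 CPM in si-hnrnpa2b1 and 1445, 1506 and 1427 CPM in NC libraries, which overlapped (-0.08 ± 0.05, edgeR adjusted p = 0.38). Of the kinases that phosphorylate SR proteins, Clk1 had 43.1 ± 3.04 FPKM in si-hnrnpa2b1 and 46.6 ± 2.04 FPKM in NC libraries, and Clk4 had 11.3 ± 0.229 and 10.6 ± 0.786 FPKM.

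The 3 MBNL genes all had negative fold changes, short of the threshold. MBNL proteins promote adult splicing patterns, and are the proteins trapped by expanded repeats in myotonic dystrophy. Mbnl3 (chromosome X, positions 138384912 to 138435391) had 64.2, 73.8 and 71.3 CPM in si-hnrnpa2b1 and 78.5, 81.3 and 78.6 CPM in NC libraries. Mbnl1 had 66.7, 73.7 and 75.7 CPM against 78.3, 84.6 and 78.7 CPM. In both genes every si-hnrnpa2b1 library lay below every NC library, and si-hnrnpa2b1 replicate 1 was the lowest of all. Mbnl2 had 322, 324 and 318 CPM against 321, 376 and 347 CPM, where NC replicate 1 lay among the si-hnrnpa2b1 values. The log2 fold changes were -0.19 ± 0.06, -0.16 ± 0.06 and -0.11 ± 0.05 for Mbnl3, Mbnl1 and Mbnl2 (edgeR adjusted p = 0.11, 0.18 and 0.25), so none passed. All 3 had an unadjusted p below 0.05, as had 18.3% of all genes tested. In every alternative the sign stayed negative for the 3 genes, with adjusted p from 0.094 to 0.61. The alternatives share the same libraries, so the constant sign adds no support. Without si-hnrnpa2b1 replicate 1, Mbnl3 had -0.13 and Mbnl1 -0.11 (edgeR adjusted p = 0.35 and 0.48). Mbnl2 had -0.06 without NC replicate 2 and -0.17 without NC replicate 1. By FPKM, Mbnl2 was the most abundant (70.2 ± 0.712 and 76.1 ± 5.29), ahead of Mbnl1 (38.6 ± 2.80 and 43.2 ± 1.41) and Mbnl3 (34.6 ± 2.69 and 39.5 ± 0.345), in si-hnrnpa2b1 and NC libraries. The first of these is the form known from brain and the last the one known from immature muscle.

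**Figure D4:**
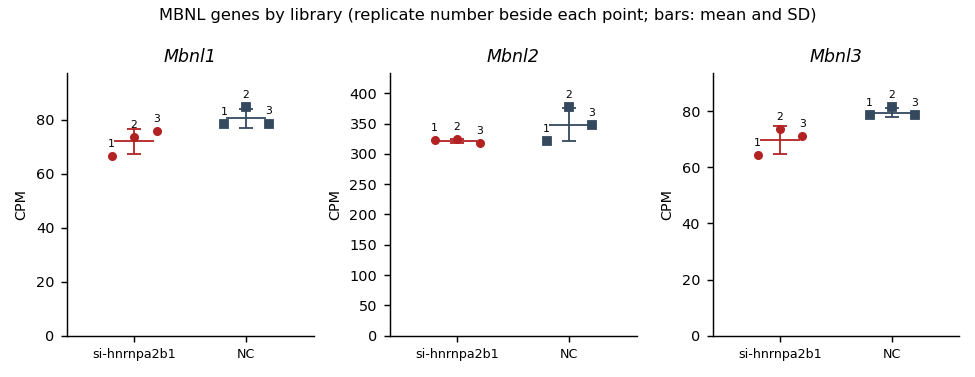
CPM of the MBNL genes in each library, with the replicate number beside each point and the mean and SD of 3 libraries as bars; each axis starts at 0 and has its own scale. Mbnl1 and Mbnl3 do not overlap between groups, Mbnl2 does, and none of the 3 passed the adjusted test.

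The start regions of these 3 genes differ widely in CG content. The 250 bases before the first listed start of each gene are shown because the fold changes had the same sign; they are from RefSeq on build GRCr8, 5' to 3' on the gene's strand, with every CG dinucleotide in capitals.
Mbnl1 (chromosome 2, 146819784 to 146820033, plus strand): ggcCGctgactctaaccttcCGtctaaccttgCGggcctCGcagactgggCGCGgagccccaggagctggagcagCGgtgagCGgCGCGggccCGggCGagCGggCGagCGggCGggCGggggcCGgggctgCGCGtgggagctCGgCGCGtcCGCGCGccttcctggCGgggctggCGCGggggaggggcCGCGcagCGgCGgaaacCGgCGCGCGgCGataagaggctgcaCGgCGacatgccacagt
Mbnl2 (chromosome 15, 103791938 to 103792187, plus strand): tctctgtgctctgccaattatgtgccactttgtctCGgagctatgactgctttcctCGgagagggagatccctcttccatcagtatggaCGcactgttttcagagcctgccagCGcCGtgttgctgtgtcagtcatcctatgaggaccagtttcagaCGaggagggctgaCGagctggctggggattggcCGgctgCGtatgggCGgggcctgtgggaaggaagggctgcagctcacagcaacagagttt
Mbnl3 (chromosome X, 135582975 to 135583224, minus strand): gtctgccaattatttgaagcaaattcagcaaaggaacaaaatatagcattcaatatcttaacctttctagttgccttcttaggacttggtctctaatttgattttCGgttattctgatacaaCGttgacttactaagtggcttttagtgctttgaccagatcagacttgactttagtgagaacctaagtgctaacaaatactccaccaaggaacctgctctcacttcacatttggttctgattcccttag
The Mbnl1 region holds 40 CG dinucleotides and is 78.0% G or C, the Mbnl2 region holds 10 at 57.2%, and the Mbnl3 region holds 2 at 37.6%. CG reads the same on both strands and is found in 94.8% of all RefSeq windows of 300 bases around a start. Of the splicing genes described here, 38 matched a window. Of these, 29 (76.3%) were CpG-rich, meaning at least 55% G or C and an observed-to-expected CG ratio of at least 0.65, as were 61.5% of 8626 windows of tested genes and 28.1% of all 27457 windows. These values describe sequence only.

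None of the other tissue-variable regulators had an unadjusted p below 0.05. The fold changes of Celf1 and Celf2 were -0.10 ± 0.06 and -0.06 ± 0.10, while those of Rbfox2 (-0.0012 ± 0.06) and Khdrbs1 (-0.01 ± 0.05) were near 0 and turned positive in some alternatives, up to 0.02 and 0.05. Rbfox2, the RBFOX gene most widely expressed outside neurons and muscle, had 24.3 ± 0.521 FPKM in si-hnrnpa2b1 and 24.4 ± 0.900 FPKM in NC libraries, a difference smaller than the spread of either group. Celf1, which opposes MBNL proteins at many exons, had 55.7 ± 2.48 and 59.8 ± 2.43 FPKM, and Celf2 had 10.0 ± 0.528 and 10.5 ± 0.773 FPKM. Celf2 overlapped between groups, with 15.7, 17.2 and 16.1 CPM in si-hnrnpa2b1 and 17.3, 18.3 and 15.5 CPM in NC libraries. Khdrbs1 encodes Sam68, a signal-regulated splicing factor, and had 77.7 ± 1.97 and 78.3 ± 6.57 FPKM. Summed over all 7 tissue-variable regulators, the MBNL genes included, the libraries had 850.1, 882 and 855 CPM in si-hnrnpa2b1 and 899, 944 and 908 CPM in NC. The groups did not overlap in this sum. It holds the 3 MBNL genes, each with an unadjusted p below 0.05, so the separation says nothing about the other regulators. Mbnl2 alone had means of 322 and 348 CPM in si-hnrnpa2b1 and NC libraries.

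The 24 tested genes not singled out for their fold changes had log2 fold changes from -0.11 to 0.10, with edgeR adjusted p from 0.33 to 0.99. Outside this set, of 67 tested genes of the core spliceosome 0 passed by edgeR or by DESeq2 and 5 had an unadjusted p below 0.05, with a median of 0.02; the one with the smallest p, the Sm protein gene Snrpd3, had 54.3 ± 1.48 CPM in si-hnrnpa2b1 and 45.8 ± 3.73 CPM in NC libraries (0.24 ± 0.07, edgeR adjusted p = 0.058) and passed without NC replicate 3 (edgeR adjusted p = 0.028). Of 18 tested genes of the exon junction complex and nonsense-mediated decay 0 passed by either tool, and 0 had an unadjusted p below 0.05. Of 56 other tested splicing regulators, 1 rose: Pspc1, a paraspeckle protein, had 79.1 ± 7.85 CPM in si-hnrnpa2b1 and 60.9 ± 2.35 CPM in NC libraries (0.38 ± 0.07, edgeR adjusted p = 0.0053), a call lost by limma on FPKM (adjusted p from 0.056 to 0.11). Of 6 tested genes of the A/B/D group, 2 rose, 1 fell, which was the target Hnrnpa2b1, and 3 did not pass. Among all genes tested 2.36% rose and 2.94% fell. The 2 that rose were Hnrnpa1 (0.41 ± 0.04, edgeR adjusted p = 3.7e-05) and Hnrnpa3 (0.18 ± 0.05, edgeR adjusted p = 0.032). The call of Hnrnpa3 was lost when any of 4 single libraries was left out, under the replicate block (0.078) and in the limma fits (highest adjusted p 0.14).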

How the data were processed

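The deposited table holds 1 column of counts and 1 of FPKM for each of 6 BRL-3A libraries. Per the file headers, the deposited counts are per gene; they are whole numbers with differing totals. The FPKM values deposited by the authors equal the count over a gene length and the column total, to within 0.062%. HISAT2 2.0.4, StringTie 1.3.0, edgeR and Rnor_6.0 are named, without roles, per the submitters' processing notes; the sources used here give no counting program, treatment of shared reads or strand setting. The number of columns of per-sample values left unused was 0.

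The test was run in edgeR 4.0.16 (R 4.3.3). Here filterByExpr (minimum count 10, minimum total count 15) kept 12261 genes, TMM factors ran from 0.989 to 1.01, and the quasi-likelihood F-test was two-sided without covariates, with a threshold of 0.05 after Benjamini-Hochberg adjustment. Intervals of 95% used the SE of that fit. On counts simulated for this comparison (12164 genes), 84% of changes of 0.5 and 99% of changes of 1 on the log2 scale were recovered by edgeR. The changes were placed only in genes above a minimum mean count, so recovery at lower counts was not examined. Both sizes exceed every fold change in this set (-0.33 to 0.13), and recovery of changes that small was not examined. No replicate pair agreed within sampling noise (chi-square per degree of freedom 2.91 to 6.00).

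DESeq2 1.42.0, other scalings and filters, limma 3.58.1 on log2(FPKM + 1) and log2(FPKM + 0.1), a replicate block and leaving out each library were tried; FPKM-scale changes understate those of low genes. Members and gene lists were chosen with earlier results of these data known. Named for their fold changes are genes past the threshold, the 12 with the smallest p, the 4 highest and 4 lowest by FPKM, and up to 4 of each other list; Ptbp1, Tra2b and the other genes given by level were named as members of their families or after their values were seen. Of the lists, 67 of 70 core spliceosome, 67 of 70 other regulator and 19 of 19 decay genes matched, 1 of them (Qk) by an older symbol. Of the marker lists, 1 of 12 hepatocyte, 8 of 10 mesenchymal, 3 of 6 cholangiocyte, 4 of 5 matched endothelial and 1 of 7 leukocyte genes were tested; outside the mesenchymal list 0 of these passed, as shown by edgeR, with 1 at an unadjusted p below 0.05.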

Additional observations from a re-analysis of the deposited data

How the results depend on the processing

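Ptbp3 was the 1 gene of the set called in each edgeR and DESeq2 setting except without NC replicate 2, where Srrm1 joined it and the count was 2; limma on log2(FPKM + 1), on log2(FPKM + 0.1) and without a filter called 0. The number of genes of the set with an unadjusted p below 0.05 ran from 3 to 7 when single libraries were left out and was 3 without replicate 3 of both groups. By limma it was 9 on log2(FPKM + 1), 8 on log2(FPKM + 0.1) and 12 without a filter. Among all genes the number changed ran from 379 to 592 without single libraries and was 292 without replicate 3 of both groups; limma gave 308, 293 and 119. The core spliceosome count ran from 0 to 1 and that of other regulators from 1 to 2 without single libraries, with 0 for other regulators in each limma setting. The cause was not tested. The sign turned in at least 1 alternative for 14 of the 43 tested genes, none of them called; for 11 of these the log2 values stayed between -0.08 and 0.07. Of the others, without single libraries, Hnrnpu ran from -0.018 to 0.022 (negative without si-hnrnpa2b1 replicate 1, and -0.0016 without NC replicate 1), Hnrnph3 from -0.22 to 0.079 (0.058 and 0.015 without si-hnrnpa2b1 replicates 2 and 3) and Ptbp1 from -0.38 to 0.23 (0.056 and 0.063 without si-hnrnpa2b1 replicates 1 and 2); without replicate 3 of both groups Hnrnph3 had 0.14. The number of intervals within 1.2-fold ran from 27 to 36 over all settings.

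Deviations from the group means correlated weakly between same-numbered libraries (0.057, -0.0039 and 0.059), against -0.093 to 0.041 between the other pairs. Not every library correlated best with its own number. With 3 libraries per group, these values cannot tell whether the numbers pair the libraries. With the replicate block 481 genes changed in place of 650, and the call of Ptbp3 was kept (edgeR adjusted p = 0.019). Low counts limit Hnrnph3, Clk4, Celf2 and Ptbp2 most, which had 593 to 1610 counts over all libraries.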

Other observations

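Among 8670 tested genes with at least 10 CPM, replicate 3 differed from the mean of the other libraries of its group by more than 0.5 on the log2 scale, in the same direction in both groups, in 5 genes. The same held for replicate 1 in 6 genes and for replicate 2 in 5, with some genes counted under more than 1 number. Dse, an epimerase of dermatan sulfate synthesis, had 24.0, 100.3 and 93.2 CPM in si-hnrnpa2b1 replicates 1, 2 and 3 and 34.5, 28.9 and 97.9 CPM in NC replicates 1, 2 and 3. Vps25, a subunit of the ESCRT machinery, had 5.37, 44.5 and 43.1 CPM in si-hnrnpa2b1 and 5.72, 4.31 and 42.7 CPM in NC libraries. Taf9, a subunit of TFIID, had 10.7, 34.6 and 36.5 CPM in si-hnrnpa2b1 and 14.4, 43.3 and 35.4 CPM in NC libraries. In these genes, chosen after their values were seen, the libraries fell at separate levels that did not follow the groups.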
